A study of Rattus norvegicus with 26 samples.

Results

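Cyp2a1 and Cyp2a2 are a pair of neighbouring genes on rat chromosome 1 that encode liver cytochrome P450 enzymes. They were followed across 26 oligonucleotide arrays of primary hepatocytes that had been exposed to TCDD or PCB 126. The members were all probe sets that the platform's probe-to-gene table assigns to Cyp2a1 or to Cyp2a2 alone. There was 1 such probe set for each gene (M33312cds_s_at for Cyp2a1 and J04187_at for Cyp2a2), so the set holds 2 of the 4737 genes that have a probe set of their own on the array. Both probe sets passed the filter on low values, which looks at the second-highest value over all arrays. Cyp2a1 passed it through exposed arrays, where it is high, and read 2.44 and 3.74 log2 with vehicle. The genes were chosen by their dose slopes over these same arrays, because their values rise with dose while those of several constitutive liver P450s fall. Of 18 others listed as constitutive and measured, 12 with TCDD and 13 with PCB 126 were called in neither direction. The rise of the pair with dose, and the fall of the constitutive P450s that fell, are therefore given as descriptions with no test. Tests on the pair are kept for the difference between the chemicals and between the pools.

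Cytochrome P450s are haem enzymes that oxidise steroids, fatty acids, drugs and pollutants. In adult rat liver CYP2A1 is a testosterone hydroxylase found mainly in females, and CYP2A2 is a closely related testosterone hydroxylase found mainly in males. The vehicle arrays here, of cultured female cells, did not follow that pattern. Cyp2a1 read 2.44 and 3.74 log2 in pools 1 and 2, and the Cyp2a2 probe set 7.75 and 6.85. The reason was not tested. Both chemicals are ligands of the aryl hydrocarbon receptor, which pairs with ARNT and binds DNA elements built around the core GCGTG, and Cyp1a1, Cyp1a2 and Cyp1b1 are its best known targets. Rat CYP2A1 is also known as an enzyme that rises after polycyclic aromatic inducers of the 3-methylcholanthrene type.

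TCDD is a chlorinated dibenzo-p-dioxin and PCB 126 is a coplanar chlorinated biphenyl. Hepatocytes of female Sprague Dawley rats (Crl:CD(SD)IGS BR), mixed into 2 pools of 3 animals each, were treated for 48 h with TCDD, PCB 126 or the vehicle alone, 0.5% DMSO. TCDD was used at 0.01 pM, 1 pM, 10 pM, 0.1 nM, 1 nM, 10 nM and 316 nM, and PCB 126 at 1 pM, 10 pM, 0.1 nM, 1 nM, 10 nM, 1000 nM and 10000 nM. There were 12 TCDD arrays, 12 PCB 126 arrays and 2 vehicle arrays. Of the 15 groups, 11 had 1 array of each pool and 4 (10 pM and 1 nM of each chemical) had 1 array of pool 2. The study compared the dose responses of the chemicals. Each pool is 1 mixture of cells from its animals, and the labels do not tie single arrays of a pool to single animals. The p-values therefore reflect array-to-array spread, which may be technical. In cultures measured in bulk, fewer cells expressing a gene and less RNA per cell cannot be told apart.

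The values are log2 signals, and the 26 arrays had medians from 3.72 to 3.99 in pool 1 and from 3.48 to 3.78 in pool 2. The filter kept 5197 of 8740 probe sets, those whose second-highest value was above 3.71 log2. The hepatocyte label was checked against 7 measured markers, among them albumin and apolipoproteins, whose mean value lay between 11.50 and 11.84 log2 with TCDD, between 11.45 and 11.99 with PCB 126, and between 11.75 and 11.77 with vehicle. Of these 7, Ambp fell by 0.13 log2 per decade of TCDD and by 0.12 per decade of PCB 126 (limma adjusted p = 0.0153 and 0.0168), and Apob rose by 0.26 with PCB 126 (limma adjusted p = 0.0107). Markers of other liver cell types are given with the family comparison. The array of pool 2 at 1 pM PCB 126 stood apart from the neighbouring doses: Cyp1a1 read 10.80 log2 there, against 7.91 at 10 pM in the same pool and 3.21 at 1 pM in pool 1. For the pair, the slopes and most comparisons of chemicals and of pools that use it are given with and without it. The level difference of Cyp2a2 between pools and the PCB 126 slopes within pool 2 are given only with it.

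The start of Cyp2a1 and the start of its nearest upstream paralogue, Cyp2a3, are shown because the genes lie side by side and only the first rose with dose on these arrays. Cyp2a3 had a dim signal throughout, with a median of 3.95 log2. Cyp1b1 is shown as a dioxin-responsive P450 whose start holds the receptor's core. Each line gives the RefSeq promoter window of build GRCr8, from 250 bases before to 50 bases after the gene's start, 5′ to 3′ on the gene's own strand. Capitals mark TATAAA on that strand and the core GCGTG on either strand (CACGC when read on the opposite strand). The windows are chr1:91359028-91359327 (plus strand) for Cyp2a1, chr1:91299334-91299633 (plus strand) for Cyp2a3 and chr6:21094315-21094614 (plus strand) for Cyp1b1.
Cyp2a1: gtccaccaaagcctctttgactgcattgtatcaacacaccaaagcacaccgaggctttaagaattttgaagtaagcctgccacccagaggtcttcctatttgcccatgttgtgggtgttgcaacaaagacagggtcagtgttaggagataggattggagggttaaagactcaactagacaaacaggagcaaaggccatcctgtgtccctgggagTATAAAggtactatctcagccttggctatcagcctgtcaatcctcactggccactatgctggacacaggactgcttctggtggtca
Cyp2a3: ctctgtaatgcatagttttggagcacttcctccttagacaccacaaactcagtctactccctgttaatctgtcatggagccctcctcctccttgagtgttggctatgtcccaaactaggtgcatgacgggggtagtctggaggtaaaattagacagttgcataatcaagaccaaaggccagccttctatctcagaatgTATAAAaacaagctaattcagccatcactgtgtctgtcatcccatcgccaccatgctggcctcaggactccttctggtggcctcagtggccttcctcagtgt
Cyp1b1: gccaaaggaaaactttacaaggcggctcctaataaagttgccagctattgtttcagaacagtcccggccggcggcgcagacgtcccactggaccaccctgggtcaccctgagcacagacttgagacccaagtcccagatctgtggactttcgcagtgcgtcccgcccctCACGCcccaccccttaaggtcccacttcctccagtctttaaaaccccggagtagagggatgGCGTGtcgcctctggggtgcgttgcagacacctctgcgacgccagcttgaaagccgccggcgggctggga
Cyp2a1 and Cyp2a3 each held 1 TATAAA, which began 36 and 52 bases before the start, and 0 copies of GCGTG. Cyp1b1 held 2 copies of GCGTG and 0 of TATAAA. The window of Cyp1a2 (chr8:66978100-66978399, minus strand) had 1 TATAAA, beginning 39 bases before the start, and 0 copies of GCGTG. Over the 33469 promoter windows of the same table, 29.7% held GCGTG on either strand and 8.80% held TATAAA on the sense strand. The motifs cannot overlap each other. A match is a description of the sequence, and no match says only that these letters are not in this window. No window was listed for Cyp2a2 or Cyp1a1.

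Cyp2a1 had a dim signal with vehicle and a bright one at the upper doses of both chemicals. In pool 1 with TCDD, Cyp2a1 read 2.44 log2 with vehicle, 2.45 at 0.01 pM, 6.28 at 1 pM, 8.98 at 0.1 nM, 9.19 at 10 nM and 9.56 at 316 nM. In pool 2 it read 3.74 with vehicle, 5.42 at 0.01 pM, 6.17 at 1 pM, 6.85 at 10 pM, 9.45 at 0.1 nM, 9.49 at 1 nM, 9.03 at 10 nM and 8.52 at 316 nM. The highest reading of pool 1 was at 316 nM, whereas pool 2 was highest at 1 nM and lay 0.97 log2 below that at 316 nM. At 0.01 pM the array of pool 1 stayed at its vehicle value and the array of pool 2 was 1.68 log2 above its own. From 0.1 nM upward the 7 TCDD arrays lay between 8.52 and 9.56, which is 4.78 to 7.12 log2 above the vehicle array of the same pool, or 27.6-fold to 139-fold.

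PCB 126 brought Cyp2a1 to the same range at higher doses. In pool 1 the gene read 2.44 log2 with vehicle, 4.84 at 1 pM, 7.06 at 0.1 nM, 9.70 at 10 nM, 9.41 at 1000 nM and 10.40 at 10000 nM. In pool 2 it read 3.74 with vehicle, 7.26 at 1 pM, 4.63 at 10 pM, 6.20 at 0.1 nM, 7.85 at 1 nM, 8.77 at 10 nM, 9.57 at 1000 nM and 9.54 at 10000 nM. The order followed the dose except for the pool 2 array at 1 pM, the one that stood apart in Cyp1a1, and small steps among the highest doses. From 10 nM upward the 6 PCB 126 arrays lay between 8.77 and 10.40, that is 5.03 to 7.96 log2 above their own vehicle array, or 32.6-fold to 249.7-fold. The vehicle value of pool 1 is below the filter's 3.71 log2 and that of pool 2 is just above it, so these folds are taken over a dim signal and depend on how dim values were summarised.

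On its own probe set Cyp2a2 had a clear signal with vehicle, and its rise over vehicle was smaller. In pool 1 with TCDD it read 7.75 log2 with vehicle, 7.16 at 0.01 pM, 8.05 at 1 pM, 8.99 at 0.1 nM, 8.57 at 10 nM and 8.63 at 316 nM. In pool 2 it read 6.85 with vehicle, 6.98 at 0.01 pM, 7.28 at 1 pM, 7.81 at 10 pM, 8.96 at 0.1 nM, 9.18 at 1 nM, 8.46 at 10 nM and 8.63 at 316 nM. In both pools the highest reading was at 0.1 or 1 nM, and the 316 nM arrays were 0.36 log2 lower than it in pool 1 and 0.56 lower in pool 2. All 7 TCDD arrays from 0.1 nM upward lay above both vehicle arrays, between 8.46 and 9.18 log2, a rise of 0.83 to 2.34 over the vehicle of the same pool (1.77-fold to 5.06-fold).

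With PCB 126, Cyp2a2 in pool 1 read 7.75 log2 with vehicle, 7.68 at 1 pM, 7.96 at 0.1 nM, 8.96 at 10 nM, 9.03 at 1000 nM and 8.93 at 10000 nM. In pool 2 it read 6.85 with vehicle, 7.63 at 1 pM, 6.47 at 10 pM, 7.23 at 0.1 nM, 8.0 at 1 nM, 8.54 at 10 nM, 9.37 at 1000 nM and 8.81 at 10000 nM. Up to 0.1 nM the arrays lay within the range of the vehicle arrays, except the pool 1 array at 0.1 nM, just above it, and the pool 2 array at 10 pM, below it. The 6 arrays from 10 nM upward lay above that range, between 8.54 and 9.37 log2. Their rise over their own vehicle was 1.18 to 2.52 log2, or 2.27-fold to 5.75-fold. The pool 2 vehicle array was lower than that of pool 1, and the pools differed by less than this at every dose that both had.

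**Figure D1:**
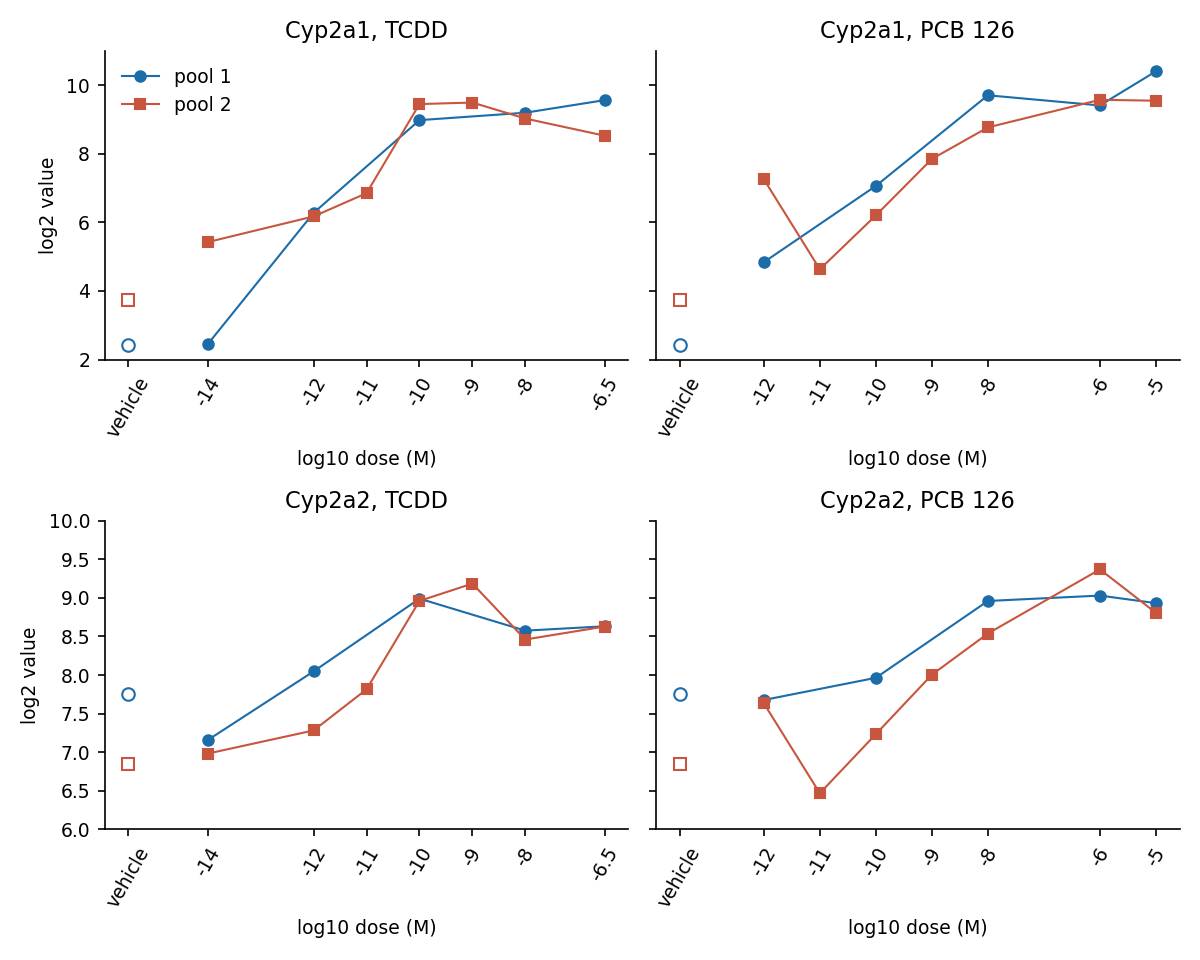
Log2 value of Cyp2a1 (top) and Cyp2a2 (bottom) on each array against the log10 molar dose of TCDD (left) or PCB 126 (right), with circles for pool 1, squares for pool 2 open symbols for the vehicle array of each pool and lines joining the doses of a pool. Cyp2a1 is at 2.44 and 3.74 with vehicle and between 8.52 and 10.40 at the upper doses, and Cyp2a2 at 7.75 and 6.85 with vehicle and between 8.46 and 9.37 at the upper doses.

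The genes also differed in how many arrays were at least doubled over vehicle. At least 1 log2 above the vehicle array of the same pool, Cyp2a1 counted 11 of 12 TCDD arrays and 11 of 12 PCB 126 arrays. From 1 pM TCDD and from 0.1 nM PCB 126 upward, every array was past that mark. Cyp2a2 passed it on 5 of 12 TCDD arrays, with no dose from which all arrays did so, and on 7 of 12 PCB 126 arrays, where all passed from 1 nM upward.

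A straight line over the doses summarises the rise. The slope of Cyp2a1 was 0.72 ± 0.12 log2 per decade of TCDD and 0.67 ± 0.12 per decade of PCB 126 (estimate ± SE, 12 arrays each). That of Cyp2a2 was 0.23 ± 0.05 for TCDD and 0.27 ± 0.06 for PCB 126. Of the 5197 probe sets, 10 had a larger TCDD slope than Cyp2a1 and 7 a larger PCB 126 slope, and 48 and 31 were ahead of Cyp2a2. The median slope of all probe sets was -0.01 for TCDD and 0.01 for PCB 126. A positive slope passed limma's test (Benjamini-Hochberg adjusted p below 0.05) for 1.64% of probe sets with TCDD and for 1.56% with PCB 126, and a negative one for 1.46% and 2.69%. Both genes are among the positive ones by the way they were chosen, and nothing is read from it. Without the array of pool 2 at 1 pM PCB 126, the PCB 126 slope was 0.77 for Cyp2a1 and 0.30 for Cyp2a2.

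A further probe set, J02669_s_at, is listed for both genes and belongs to neither alone. At the doses that both pools had, its TCDD readings were 3.80 and 3.83 log2 with vehicle in pools 1 and 2, 4.08 and 5.09 at 0.01 pM, 5.25 and 5.80 at 1 pM, 7.35 and 8.90 at 0.1 nM, 6.79 and 8.40 at 10 nM, and 8.18 and 7.89 at 316 nM. Its PCB 126 readings were 4.62 and 6.77 at 1 pM, 6.25 and 5.63 at 0.1 nM, 8.13 and 7.90 at 10 nM, 8.0 and 8.57 at 1000 nM and 8.79 and 8.27 at 10000 nM. It was dim with vehicle and bright at the upper doses, and its slopes of 0.50 ± 0.09 log2 per decade of TCDD and 0.51 ± 0.09 per decade of PCB 126 (SE) lay between those of the genes. Its vehicle readings were far below the 7.75 and 6.85 log2 of the probe set for Cyp2a2 alone. The vehicle level of Cyp2a2, and its rise over vehicle, thus depend on the probe set read. The reason for this disagreement was not tested. Cyp2a1 and Cyp2a2 are close paralogues, so the signal of a probe set named for one can hold RNA of the other, and the suffix of M33312cds_s_at marks probes that can match more than 1 transcript.

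How the chemicals compare at the same dose is not what the genes were chosen for, and 5 doses from 1 pM to 10 nM were shared. The choice drew on readings of these same arrays, so the tests between chemicals and between pools are not fully independent of it. At 0.1 nM, TCDD arrays of Cyp2a1 read 8.98 and 9.45 log2 in pools 1 and 2 and PCB 126 arrays 7.06 and 6.20. The difference, TCDD minus PCB 126, was 2.58 ± 0.84 log2 (SE, 95% interval 0.78 to 4.38, limma adjusted p = 0.332). Cyp2a1 was also higher with TCDD at 10 pM, by 2.22 (-0.33 to 4.77, limma adjusted p = 0.488), and at 1 nM, by 1.64 (-0.91 to 4.19, limma adjusted p = 0.999), each from 1 pool 2 array per chemical. At 1 pM the difference was 0.18 (-1.62 to 1.98, limma adjusted p = 0.989). It turned to -0.99 without the pool 1 array of PCB 126 and was 1.34 without that of pool 2. At 10 nM the Cyp2a1 difference was -0.12 (-1.93 to 1.68). Within pools, TCDD gave the higher Cyp2a1 reading in 6 of 8 pairs, with differences from -1.08 to 3.24 and a median of 1.54. Without the pair that holds the pool 2 array at 1 pM PCB 126 it was 6 of 7 pairs, with a median of 1.64.

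For Cyp2a2 the estimates were smaller and their intervals narrower. At 0.1 nM it read 8.99 and 8.96 log2 with TCDD and 7.96 and 7.23 with PCB 126. The difference was 1.38 ± 0.28 log2 (SE, 95% interval 0.79 to 1.96, limma adjusted p = 0.0785). It was 1.35 at 10 pM (0.51 to 2.18, limma adjusted p = 0.0876) and 1.18 at 1 nM (0.35 to 2.01, limma adjusted p = 0.999). At the ends of the shared range the interval spanned 0, with 0.01 at 1 pM (-0.58 to 0.60) and -0.23 at 10 nM (-0.82 to 0.36). Leaving out 1 array moved the Cyp2a2 difference at 1 pM between -0.26 and 0.28, and it was 0.13 without the pool 2 array of PCB 126. In 5 of 8 pairs of the same pool Cyp2a2 was higher with TCDD, the differences running from -0.38 to 1.73 with a median of 0.70. It was 5 of 7 pairs, with a median of 1.03, without the pair of pool 2 at 1 pM.

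Averaged over the 5 shared doses, TCDD exceeded PCB 126 by 1.30 ± 0.44 log2 for Cyp2a1 (SE, 95% interval 0.35 to 2.25, limma adjusted p = 0.294). For Cyp2a2 the mean difference was 0.74 ± 0.15 (0.42 to 1.05, limma adjusted p = 0.0624). No difference at a matched dose, nor either mean, passed the adjusted threshold, which does not show that the chemicals acted alike. The intervals of both means lie above 0, but each 95% interval is for 1 gene and is not adjusted for the number of probe sets. The share of all probe sets called was 0% at 1 pM, 2.62% at 10 pM, 0.0385% at 0.1 nM, 0% at 1 nM, 0% at 10 nM and 0.115% for the mean. With limma, 101 probe sets had an unadjusted p below 0.05 at 1 pM, 55 at 1 nM and 103 at 10 nM, the doses where none was called. For Cyp2a2, leaving out the pool 2 array at 0.1 nM TCDD put the 0.1 nM difference (1.24, limma adjusted p = 0.0275) and the mean (0.71, limma adjusted p = 0.0408) past the threshold. Leaving out either vehicle array did so for the Cyp2a2 mean (0.74, limma adjusted p = 0.0468 without that of pool 1 and 0.0456 without that of pool 2). The Cyp2a2 mean ran from 0.68 to 0.79 log2 over the 22 arrays that could be left out, and stayed short of the threshold in 19 of these fits. Leaving out an array that is alone in its group, at 10 pM or 1 nM, removes the mean, so those arrays were not checked. The limma adjusted p for the Cyp2a2 mean was 0.670 without the pool term. Without the pool 2 array at 1 pM PCB 126 the mean was 1.53 for Cyp2a1 (limma adjusted p = 0.142) and 0.76 for Cyp2a2 (limma adjusted p = 0.0666).

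**Figure D2:**
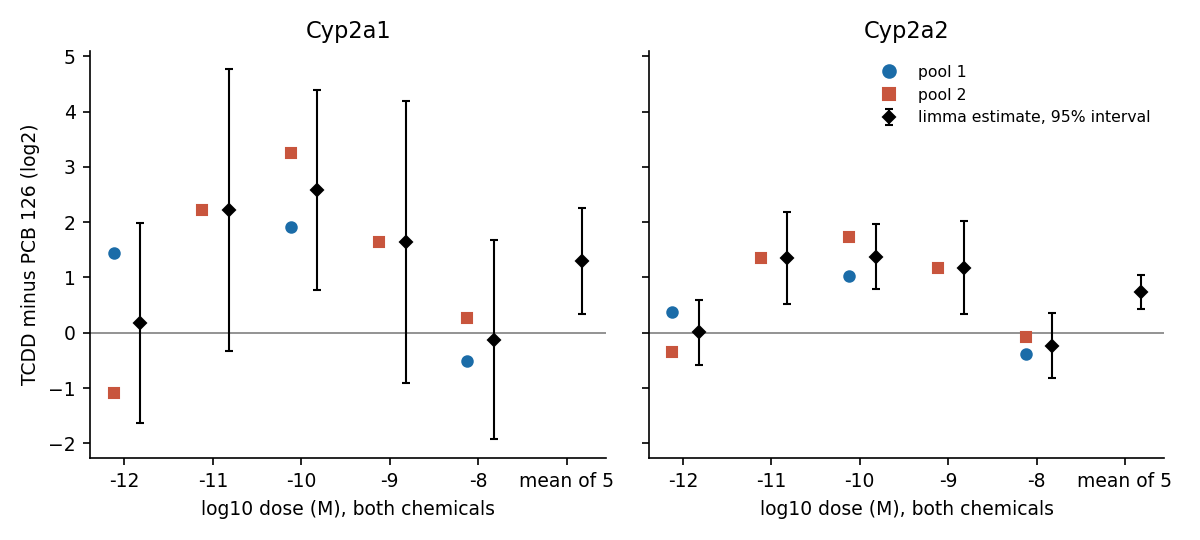
Difference in log2 value, TCDD minus PCB 126, for Cyp2a1 (left) and Cyp2a2 (right) at each log10 molar dose used for both chemicals and for the mean of the 5 doses, with circles and squares for the pairs of pool 1 and pool 2 and diamonds with bars for the limma estimate and its 95% interval. The differences are largest in the middle of the range (2.58 for Cyp2a1 and 1.38 for Cyp2a2 at -10) and near 0 at -12 and -8.

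The straight-line slopes of the chemicals were not called different. The lines cover unlike dose ranges, 0.01 pM to 316 nM for TCDD and 1 pM to 10000 nM for PCB 126. With TCDD, Cyp2a1 already lay between 8.52 and 9.56 log2 from 0.1 nM upward. A small slope difference therefore does not show that the curves were equally steep. The TCDD slope minus the PCB 126 slope was 0.05 log2 per decade for Cyp2a1 (95% interval -0.31 to 0.41, limma adjusted p = 0.937) and -0.04 for Cyp2a2 (-0.20 to 0.11, limma adjusted p = 0.848). Over all probe sets 0% were called in this comparison, with limma p below 0.05 unadjusted for 342. Without the pool 2 array at 1 pM PCB 126 the slope difference was -0.05 for Cyp2a1 and -0.08 for Cyp2a2, so the direction for Cyp2a1 turned.

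The dose at which each curve last crossed the midpoint between its own vehicle reading and its highest reading, by linear interpolation, describes the shift along the dose axis. For Cyp2a1 it was a log10 M of -12.15 in pool 1 and -11.35 in pool 2 with TCDD, and -10.58 and -9.72 with PCB 126, which are 1.57 and 1.62 decades higher. For Cyp2a2 it was -11.32 and -10.83 with TCDD and -9.15 and -8.81 with PCB 126, a shift of 2.17 and 2.02 decades. The Cyp2a1 midpoint depends on a vehicle signal at or below the filter's level, so its place on the dose axis is not set against that of Cyp2a2. For the classical targets the shifts were 0.66 and 1.27 decades for Cyp1a2, 1.77 and 1.84 for Cyp1b1, and 1.64 in pool 1 for Cyp1a1, whose pool 2 curve gave no value because every PCB 126 reading there was already past the midpoint. Pool 1 had no array at 10 pM or 1 nM, so its crossings for the pair were interpolated over wider dose gaps than those of pool 2. In pool 2 the 1 pM PCB 126 reading of Cyp2a1, 7.26 log2, was already past the midpoint of 6.66, before the later crossing. Both chemicals are set against the same vehicle array of a pool, and each crossing comes from 1 array a dose, so no test is given.

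Both pools gave positive slopes for both genes. The slope of Cyp2a1 was 0.53 log2 per decade of TCDD in pool 2 and 0.92 in pool 1. Per decade of PCB 126, pool 2 gave 0.58 and pool 1 gave 0.76. The slope difference between pools was -0.38 (95% interval -0.89 to 0.13, limma adjusted p = 0.722) for TCDD and -0.17 (-0.69 to 0.34, limma adjusted p = 1.00) for PCB 126. For Cyp2a2 the slopes were 0.26 in pool 2 and 0.19 in pool 1 with TCDD, and 0.32 and 0.21 with PCB 126. Those differences were 0.08 (-0.16 to 0.31, limma adjusted p = 0.841) and 0.12 (-0.12 to 0.36). Of all probe sets, 0.0577% were called for the TCDD slope difference and 0% for that of PCB 126, where limma's unadjusted p was below 0.05 for 91. Without the pool 2 array at 1 pM the PCB 126 slope difference was 0.04 for Cyp2a1, turned in direction, and 0.22 for Cyp2a2.

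In level, pool 2 minus pool 1 was 0.31 log2 for Cyp2a1 (95% interval -0.46 to 1.07, limma adjusted p = 0.442), or 0.09 without the pool 2 array at 1 pM PCB 126. For Cyp2a2 it was -0.27 (-0.52 to -0.02, limma adjusted p = 0.0473), which passed the threshold, as did 78.4% of all probe sets. The array medians averaged 3.58 in pool 2 and 3.85 in pool 1, and once each array was centred on its median the Cyp2a2 difference was 0.0047. The call was lost in 14 of the 26 fits that left out 1 array, with the difference between -0.33 and -0.21.

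None of the other Cyp2 genes was called higher with either chemical. Of 21 Cyp2 genes with a probe set of their own, 17 passed the filter, and besides Cyp2a1 and Cyp2a2 there were 15. With TCDD, limma called 0 of these 15 higher and 6 lower, and with PCB 126 0 higher and 5 lower, at an adjusted p below 0.05. At an unadjusted p below 0.05, 1 was higher with each chemical, Cyp2f4. The median slope of the 15 was -0.04 log2 per decade for TCDD and -0.03 for PCB 126, against -0.01 and 0.01 over all probe sets. This contrast between the pair and its relatives is the pattern for which the pair was chosen, so these counts restate the choice and nothing is read from them.

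Those with called negative slopes, given here as descriptions, were enzymes of steroid, drug and solvent metabolism. Cyp2c12, a steroid hydroxylase of female rat liver, had a slope of -0.53 ± 0.10 log2 per decade of TCDD and of -0.39 ± 0.10 per decade of PCB 126 (SE). Cyp2c7, a retinoid and steroid hydroxylase, had slopes of -0.36 ± 0.06 and -0.35 ± 0.07. Cyp2e1, which oxidises ethanol and small solvents, had a slope of -0.37 ± 0.06 with TCDD, and its PCB 126 slope of -0.22 ± 0.06 was not called. The drug-metabolising Cyp2c6v1, Cyp2d2 and the liver enzyme Cyp2b3 had slopes of -0.27, -0.25 and -0.20 with TCDD and -0.24, -0.25 and -0.23 with PCB 126. At 10 nM Cyp2c12 read 4.26 and 6.98 log2 in pools 1 and 2 with TCDD and 5.39 and 7.08 with PCB 126, against 8.93 and 9.56 with vehicle. Without the pool term the lower calls among all P450s were 1 for TCDD (Cyp2c12) and 1 for PCB 126 (Cyp2b3). Leaving out the pool 1 array at 1 pM PCB 126 left 1 P450 called lower with PCB 126, and leaving out the pool 2 array at 10000 nM left 3.

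Of the direct chromosomal neighbours none was called, though Cyp2f4 came near. In the RefSeq gene order Cyp2a3, known mainly from lung and nasal tissue, precedes Cyp2a1, and Cyp2f4 follows Cyp2a2 after 2 pseudogenes. Cyp2a3 lay between 3.70 and 5.39 log2 on all arrays, with slopes of -0.02 for TCDD and 0.03 for PCB 126 (limma adjusted p = 0.811 and 0.489). Cyp2f4 lay between 2.40 and 6.04 log2, with slopes of 0.19 ± 0.06 and 0.13 ± 0.06 that did not pass (limma adjusted p = 0.0658 and 0.261; unadjusted, both below 0.05). It was at least doubled over vehicle on 5 of 12 TCDD arrays and 6 of 12 PCB 126 arrays. Cyp2b12, Cyp2b15 and Cyp2g1, farther upstream, never exceeded 3.77 log2 and did not pass the filter. No difference in slope between these genes and the pair was tested.

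**Figure D3:**
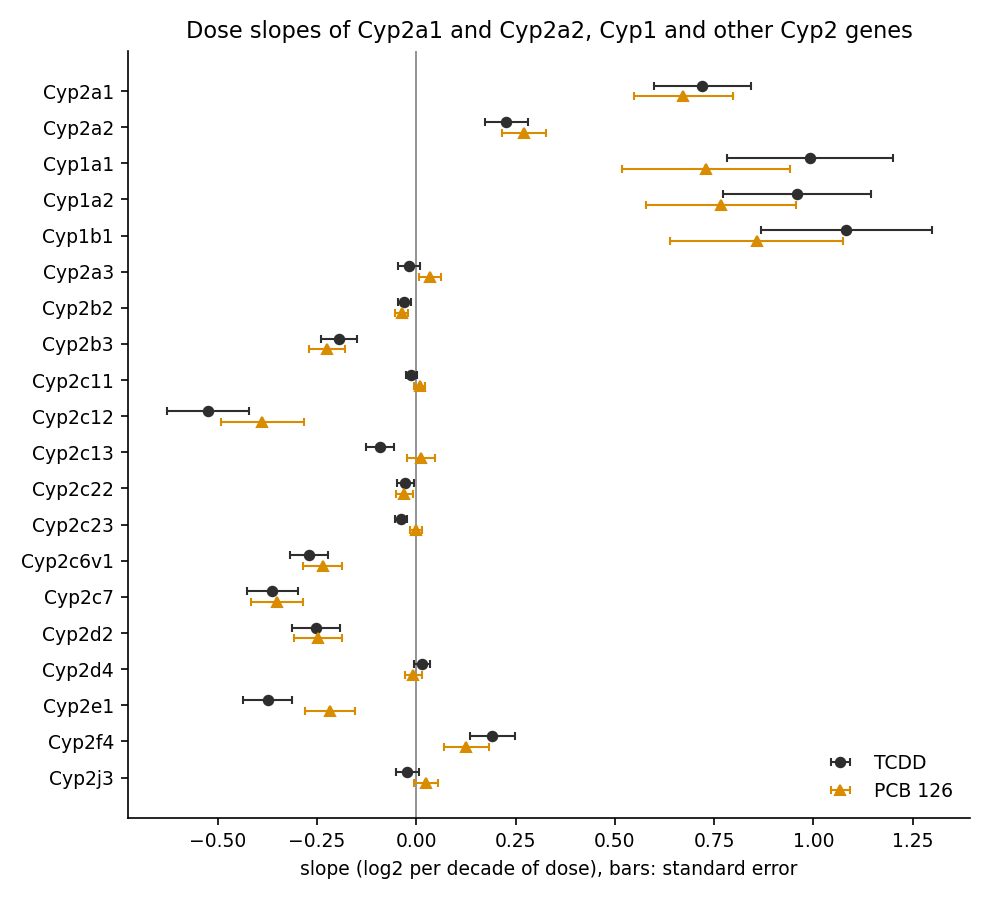
Dose slope (log2 per decade, points) with its standard error (bars) for Cyp2a1 and Cyp2a2, the Cyp1 genes and the other measured Cyp2 genes, with circles for TCDD and triangles for PCB 126. Cyp2a1 (0.72 and 0.67) lies near the Cyp1 genes, Cyp2a2 (0.23 and 0.27) is lower, and 6 other Cyp2 genes with called negative slopes in at least 1 chemical lie between -0.53 and -0.20.

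Across all 33 measured P450 genes, 5 were called higher and 6 lower with TCDD, and 5 higher and 5 lower with PCB 126. Over all probe sets, the shares called higher and lower were 1.64% and 1.46% with TCDD, and 1.56% and 2.69% with PCB 126. The P450 counts include the pair and the falling P450s that its choice used, so nothing is read from them. Besides the pair, the higher ones were Cyp1a1, Cyp1a2 and Cyp1b1 with TCDD, and Cyp1a2, Cyp1b1 and Cyp3a23-3a1 with PCB 126. Cyp1a1 rose by 0.99 ± 0.21 log2 per decade of TCDD (SE, limma adjusted p = 0.00969), and its PCB 126 slope of 0.73 ± 0.21 missed the threshold (limma adjusted p = 0.0535), but passed without the pool 2 array at 1 pM (0.87, limma adjusted p = 0.0339). Cyp3a23-3a1, a steroid and drug hydroxylase, rose by 0.58 ± 0.09 with PCB 126 (limma adjusted p = 0.00208), and its TCDD slope was 0.31 ± 0.09 (limma adjusted p = 0.0613). Leaving out either array at 0.01 pM TCDD reduced the P450 genes called higher with TCDD to 3, and leaving out the pool 1 array at 1 pM or the pool 2 array at 10 pM of PCB 126 reduced those called higher with PCB 126 to 3.

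Lists around the pair's function gave a mixed picture. For each list, the share of all probe sets called was 1.64% higher and 1.46% lower with TCDD, and 1.56% and 2.69% with PCB 126. Among 18 measured genes of steroid hormone metabolism other than the pair, 1 was called higher with each chemical, 2 were lower with TCDD and 1 with PCB 126. The one that rose was Hsd17b2, which oxidises estradiol and testosterone, by 0.32 ± 0.09 log2 per decade of TCDD and 0.38 ± 0.09 per decade of PCB 126 (SE, limma adjusted p = 0.0374 and 0.0127). The TCDD call of Hsd17b2 was lost with median centring, without the filter, with only the doses of both pools, with the shared doses and without the pool term (limma adjusted p from 0.0538 to 0.266), within each pool alone, and in 5 of 26 fits that left out 1 array. Its PCB 126 call was lost over the shared doses, without the pool term and within each pool. Akr1d1, the steroid reductase of bile acid synthesis, fell by 0.18 ± 0.05 with TCDD (limma adjusted p = 0.0258), and the other lower gene with TCDD was Cyp2c12. Among 17 other measured genes known for a sex difference in rat liver, limma called 0 higher and 3 lower with each chemical. The lower ones were Cyp2c7, Cyp2c12 and Sult1a1, and 0 were higher at an unadjusted p below 0.05. Cyp2c7 and Cyp2c12 are among the falling constitutive P450s that the choice of the pair used. Nothing is read from their calls here, nor from those of Cyp2c12 in the steroid list. Sult1a1, a phenol sulfotransferase, had slopes of -0.15 with TCDD and -0.14 with PCB 126. Without the pool term limma no longer called Akr1d1 with TCDD, nor Sult1a1 with either chemical. Median centring also lost the TCDD calls of Akr1d1 and Sult1a1 (limma adjusted p = 0.0594 and 0.0535). The Akr1d1 call was further lost with only the doses of both pools (limma adjusted p = 0.0717) and in 5 of 26 fits that left out 1 array. The Sult1a1 call was lost in 1 of 26 such fits with TCDD and in 2 with PCB 126. Of 18 other measured constitutive liver P450s, 0 were called higher with either chemical (0 also at an unadjusted p below 0.05 in limma), 6 lower with TCDD and 5 lower with PCB 126, which is the pattern the choice of the pair used, and nothing is read from it. Of 7 measured genes of the aryl hydrocarbon receptor battery, 5 rose with TCDD (Cyp1a1, Cyp1a2, Cyp1b1, Nqo1 and Aldh3a1) and 4 with PCB 126 (the same without Cyp1a1). The PCB 126 call of Nqo1 was lost without the pool term (limma adjusted p = 0.0843). With only the doses of both pools, those of Cyp1a2 and Cyp1b1 were lost (limma adjusted p = 0.0674 and 0.0959). Some fits that left out 1 array also lost calls of Cyp1a1 and Nqo1 with TCDD, and of Cyp1a2, Cyp1b1 and Nqo1 with PCB 126.

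Of 13 measured markers of other liver cells, 1 was called with TCDD and 2 with PCB 126, all lower. Over all probe sets, 1.46% were called lower with TCDD and 2.69% with PCB 126. Lyz2, a lysozyme of macrophages, fell by 0.19 log2 per decade of TCDD and by 0.17 per decade of PCB 126 (limma adjusted p = 0.00915 and 0.0222), the 1 macrophage marker of 3 measured to be called, and neither call held without the pool term. Tagln, an actin-binding protein of smooth muscle and activated stellate cells, fell by 0.48 with PCB 126 (limma adjusted p = 0.00549), 1 of 6 measured stellate markers. The mean value of the 3 macrophage markers lay between 5.08 and 6.03 log2 with TCDD, 5.12 and 5.89 with PCB 126, and 5.56 and 5.89 with vehicle. That of the 6 stellate markers lay between 5.23 and 6.18 with TCDD, 5.18 and 5.97 with PCB 126, and 5.87 and 6.05 with vehicle. Of 2 endothelial and 2 cholangiocyte markers limma called 0, with unadjusted p below 0.05 for 1 cholangiocyte marker with PCB 126. The endothelial markers Kdr and Lyve1 averaged 4.12 and 3.33 log2. The part of other cell types in the rise of Cyp2a1 and Cyp2a2 was not tested.

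Over the 26 arrays, after each pool was centred on its own mean, Cyp2a1 and Cyp2a2 correlated at r = 0.88. These arrays share the doses, so genes that follow dose correlate with each other, and no p is given. Among 3032 other genes, the ones most like Cyp2a1 were Cyp1a2 (r = 0.941), the quinone reductase Nqo1 (0.931), Cyp1a1 (0.928), Neurl3 (0.920), Cyp3a23-3a1 (0.919) and the paraoxonase Pon1 (0.907). For Cyp2a2 they were Pon1 (0.90), the phosphate and anion transporter Slc17a1 (0.897), the aldehyde dehydrogenase Aldh3a1 (0.897), Hsd17b2 (0.893), Cyp1a2 (0.889) and Cyp1b1 (0.889). Cyp1a2 and Pon1 stood on both lists. The most opposite genes were Serpinb9 (-0.911), Bex3 (-0.903) and Jup (-0.90) for Cyp2a1, and Acta1 (-0.876), Tagln (-0.873) and Aopep (-0.872) for Cyp2a2. Tagln is also among the stellate markers above. The probe set listed for both genes correlated at 0.968 with Cyp2a1 and 0.926 with Cyp2a2.

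**Figure D4:**
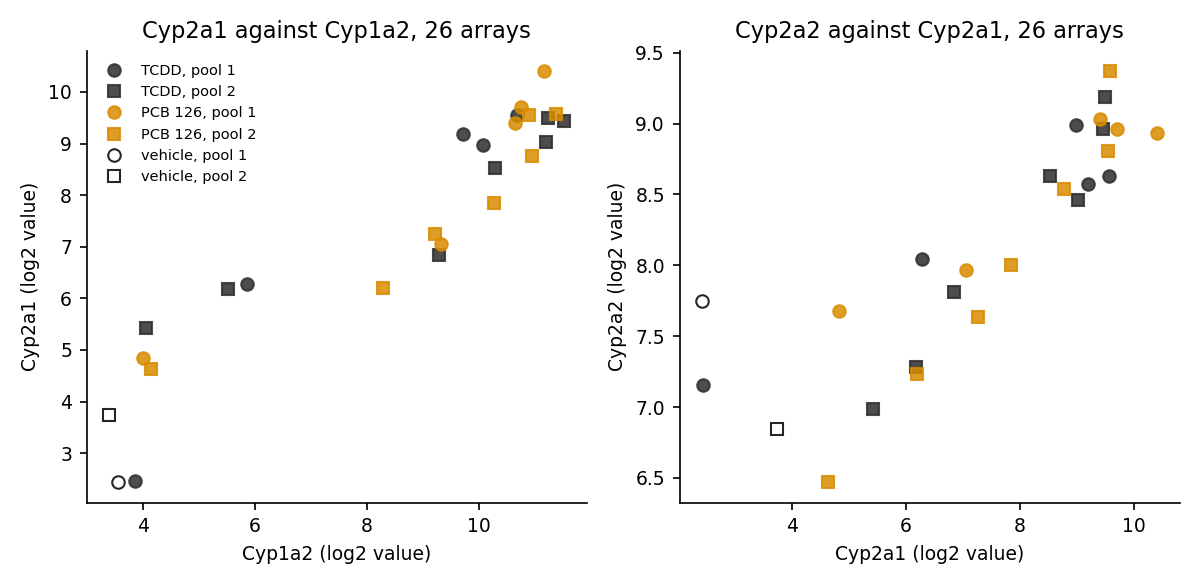
Log2 values of Cyp2a1 against Cyp1a2 (left) and of Cyp2a2 against Cyp2a1 (right), 1 point an array, with dark symbols for TCDD, orange for PCB 126, open for vehicle, circles for pool 1 and squares for pool 2. Cyp2a1 rises along with Cyp1a2 (r = 0.941 after centring each pool), while Cyp2a2 spans 6.47 to 9.37 as Cyp2a1 spans 2.44 to 10.40.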

How the data were processed

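The members and the gene lists were chosen with earlier results of these data known. Affymetrix rat arrays gave 1 column per array of the authors' deposited log2 values, made with GCRMA 2.8.0 per the submitters' processing notes. Those notes also list RMA, whose role is not given in the sources used here, nor are the settings. GCRMA corrects for nonspecific binding and leaves little spread among dim probe sets, which affects folds over a dim vehicle signal. Depth has no meaning for arrays, and their number limits the precision.

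Groups came from the labels (chemical, log10 molar dose, pool). Of 8799 probe sets, 59 controls were left out, and 5197 of 8740 were kept whose second-highest value exceeded the median of all values, 3.71. The platform's table lists 1 gene for 7006 probe sets, several for 308 and none for 1426. A gene with several probe sets was represented by the one with the highest mean (3034 genes).

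limma 3.58.1 (R 4.3.3; lmFit, then trended and robust eBayes) was fitted to all kept probe sets, with Benjamini-Hochberg adjustment at 0.05. The trend model had terms for pool, for chemical and for log10 dose nested in chemical (20 residual degrees of freedom); a vehicle array has no dose and enters through pool and spread. The group model had pool and 15 groups (10 degrees of freedom), with groups of 1 array borrowing the spread of the rest, and another model had slopes by pool (16). Pool was a block because the labels place the arrays of a pool in cells of the same animals. Deviations from the group means correlated between the 11 groups with both pools, at r = 0.461 to 0.892 (mean 0.732).

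The text names the members, the Cyp1 and Cyp2 genes called in either trend, the called members of each list, and the 6 genes most like each member. Cyp2a3, Cyp2f4, Cyp2b12, Cyp2b15 and Cyp2g1 are named as neighbours, Kdr and Lyve1 for their level, and the 3 genes most opposite to each member; these were chosen after their values were seen. The lists were the aryl hydrocarbon receptor battery, constitutive liver P450s, steroid hormone metabolism, sex-dependent rat liver genes and markers of 5 liver cell types. Alternatives were median centring, no filter, plain eBayes, no pool term, other sets of doses, each pool alone, the vehicle placed 1 decade below the lowest dose, every probe set on its own, and each array left out.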

Additional observations from a re-analysis of the deposited data

How the results depend on the processing

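Across the alternatives, both genes kept a positive dose slope with both chemicals. Pool 1 alone gave a TCDD slope of 0.915 log2 per decade for Cyp2a1 and a PCB 126 slope of 0.205 for Cyp2a2, and pool 2 alone a TCDD slope of 0.534 for Cyp2a1. Over the shared doses alone the PCB 126 slopes were 0.887 for Cyp2a1 and 0.328 for Cyp2a2. With vehicle 1 decade below the lowest dose the PCB 126 slope of Cyp2a1 was 0.807. The probe set listed for both Cyp2a1 and Cyp2a2, an alternative chosen after seeing the data, gave 0.499 (TCDD) and 0.508 (PCB 126). Leaving out 1 array moved the Cyp2a1 TCDD slope between 0.54 and 0.84, the lowest without pool 1 at 0.01 pM. The Cyp2a2 mean difference passed with eBayes without trend and robust (0.74, limma adjusted p = 0.0465), and ran from 0.68 to 0.79 over the 22 arrays that could be left out. The Cyp2a2 difference at 0.1 nM then ran from 1.12 to 1.63. The pool difference of Cyp2a2 turned positive under median centring (0.0047), and ran from -0.33 to -0.21 over the arrays left out. Without the pool block the Cyp2a2 mean difference was again 0.74 (limma adjusted p = 0.670) and P450 counts called lower were 1 (TCDD) and 1 (PCB 126), with 4 called higher with TCDD, Cyp2a2 no longer among them, and 5 with PCB 126. Only doses with both pools gave 3 P450s higher and 3 lower with PCB 126. Over the shared doses 0 P450s were called higher with TCDD and 0 with PCB 126, in pool 1 alone 0 in either direction, and in pool 2 alone 0 higher with either chemical and 2 lower with TCDD. Counting each probe set, 10 P450 probe sets were higher with TCDD, and 11 were higher and 10 lower with PCB 126. Leaving out 1 array, P450 counts ran from 3 to 7 higher and 4 to 6 lower with TCDD, and from 3 to 6 higher and 1 to 7 lower with PCB 126. The average of a gene's probe sets was not run because each member has 1. The cause of these changes was not tested. With 2 vehicle arrays and at most 2 arrays a dose, matched-dose intervals span over 1 log2 for Cyp2a2 and over 3 for Cyp2a1.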
